A study of Mus musculus with 3 samples.

Results

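Replication-dependent histone genes were examined in mouse monocytes by DNase-seq, in which the nuclease DNase I cuts open chromatin and peaks of cutting mark accessible DNA. The members were the protein-coding genes of the GENCODE M21 annotation (mm10) whose symbols start with Hist1h, Hist2h, Hist3h or Hist4h. There were 67 of them among 21851 protein-coding genes with an annotated coding transcription start site (TSS). They comprised 6 linker histone H1 genes, 18 H2A, 18 H2B, 12 H3 and 13 H4 genes. The series held 1 group of 3 libraries, numbered 1, 2 and 4, of primary monocytes from adult virgin female mice aged 2 months of the hybrid strain B6CASTF1/J. No treatment, transgene or control group was named. Each library had a biosample identifier of its own and all shared a donor identifier, so the SD over libraries (n = 3 throughout) may be technical. With 1 group there was no contrast between conditions, and the values below are descriptions without a test.

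These genes supply the histones that package newly made DNA, and their transcription is known to rise in S phase. Their mRNAs lack a poly(A) tail and end in a short stem-loop that is bound by the protein Slbp. Transcription and processing take place at histone locus bodies, nuclear structures organised by Npat around the gene clusters. Monocytes are phagocytes of the innate immune system that divide little once formed. In mouse the largest group of these genes lies on chromosome 13, with smaller groups on chromosomes 3, 11 and 6.

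The deposited peak lists held 42657 to 54046 peaks per library in the longer list used here, with library 2 the shortest, and 107955 to 144028 footprints. A footprint is a short stretch that is cut less than the bases around it, which can mark a shielded site. Promoters of 6 of 10 monocyte marker genes, Spi1, Csf1r and Lyz2 included, carried a peak in each library. The share over all protein-coding genes outside the histone group was 50.4%. Promoters of Fcgr4, Ly6c2 and Fcgr1 carried a peak in some libraries only, and that of Ccr2 carried none. Promoter peaks in all libraries were found for 0 of 6 T cell, 0 of 5 B cell, 0 of 5 erythroid, 0 of 5 natural killer and 1 of 6 neutrophil markers. Read totals were not among the files, so sequencing depth is unknown. The height of a peak is a signal of cutting computed by the authors, whose scale is not stated. In a bulk sample a low peak cannot be told apart from an open site in fewer cells.

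The promoter sequences below are shown because the tallest peaks and the divergent gene pairs described further on lie over them. They were read from the GRCm38.p6 reference, the build that mm10 names, from 5′ to 3′ on the strand of the gene. The first 4 are the 250 bases before the TSS of Hist1h4c (chr13:23698455-23698704, minus strand), Hist1h4a (chr13:23761231-23761480, minus strand), Hist1h3e (chr13:23562370-23562619, minus strand) and Hist1h1c (chr13:23738558-23738807, plus strand). The other 3 lie between the start sites of head-to-head pairs and are given on the plus strand: Hist1h2bf and Hist1h2ad (chr13:23574197-23574380), Hist1h2ac and Hist1h2bc (chr13:23683949-23684198) and the testis pair Hist1h2ba and Hist1h2aa (chr13:23934159-23934458, its middle 300 bases). Capitals mark exact matches, on either strand, of 8 motifs: TATAAA (the TATA box), CCAAT (bound by NF-Y), ATTTGCAT (the octamer bound by Pou2f1), GGGCGG (the GC box), TGACGT (the cAMP response element), GGTCCG (part of the H4 element bound by Hinfp), AAACACA (the H1 box) and GCGGGAA (an E2F site). Matches that overlap run together.
Hist1h4c: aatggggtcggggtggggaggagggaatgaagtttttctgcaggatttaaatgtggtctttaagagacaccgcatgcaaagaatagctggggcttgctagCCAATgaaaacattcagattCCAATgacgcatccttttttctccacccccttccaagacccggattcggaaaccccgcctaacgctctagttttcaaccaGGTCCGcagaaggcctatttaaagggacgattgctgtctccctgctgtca
Hist1h4a: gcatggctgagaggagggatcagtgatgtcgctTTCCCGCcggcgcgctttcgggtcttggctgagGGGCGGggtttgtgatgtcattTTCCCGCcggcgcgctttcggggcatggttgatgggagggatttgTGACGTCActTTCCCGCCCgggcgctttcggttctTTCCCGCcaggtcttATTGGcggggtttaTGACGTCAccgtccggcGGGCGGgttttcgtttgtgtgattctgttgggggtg
Hist1h3e: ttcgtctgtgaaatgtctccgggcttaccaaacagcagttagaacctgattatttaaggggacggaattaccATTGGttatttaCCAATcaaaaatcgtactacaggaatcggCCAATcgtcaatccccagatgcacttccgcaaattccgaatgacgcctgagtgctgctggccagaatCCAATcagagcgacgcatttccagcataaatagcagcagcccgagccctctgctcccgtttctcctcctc
Hist1h1c: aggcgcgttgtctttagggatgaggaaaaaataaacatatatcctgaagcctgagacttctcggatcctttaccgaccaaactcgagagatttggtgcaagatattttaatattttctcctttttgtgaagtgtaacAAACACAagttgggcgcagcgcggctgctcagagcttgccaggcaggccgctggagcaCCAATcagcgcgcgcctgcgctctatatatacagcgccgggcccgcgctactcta
Hist1h2bf to Hist1h2ad: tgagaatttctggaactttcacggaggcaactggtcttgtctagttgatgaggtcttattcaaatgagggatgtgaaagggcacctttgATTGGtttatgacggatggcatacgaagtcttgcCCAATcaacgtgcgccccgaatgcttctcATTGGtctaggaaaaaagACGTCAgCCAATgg
Hist1h2ac to Hist1h2bc: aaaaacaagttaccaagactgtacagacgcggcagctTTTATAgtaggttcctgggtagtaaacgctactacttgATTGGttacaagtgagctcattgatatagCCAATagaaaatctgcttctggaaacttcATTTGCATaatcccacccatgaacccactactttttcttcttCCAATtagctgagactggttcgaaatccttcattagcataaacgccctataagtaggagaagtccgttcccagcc
Hist1h2ba to Hist1h2aa: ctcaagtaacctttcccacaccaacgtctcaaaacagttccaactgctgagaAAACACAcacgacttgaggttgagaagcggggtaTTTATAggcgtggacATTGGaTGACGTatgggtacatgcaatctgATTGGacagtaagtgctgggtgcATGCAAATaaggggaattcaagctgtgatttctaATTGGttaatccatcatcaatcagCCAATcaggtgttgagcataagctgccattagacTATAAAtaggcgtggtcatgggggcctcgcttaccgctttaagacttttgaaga

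Most histone promoters were open in monocytes, and the tallest peak of a histone gene was in the median lower than that of other genes. A promoter peak, meaning a peak that overlaps the 1000 bp on either side of a TSS, was present in all 3 libraries for 55 of the 67 genes (82.1%), against 50.4% of the 21784 other protein-coding genes. Of the 10315 other genes with a CpG-rich start (observed over expected CpG ratio of 0.6 or more) 81.0% had one, and 64 of the 67 histone genes met the same ratio. The share of open histone promoters was therefore near that of CpG-rich promoters in general. A peak within 100 bp of the TSS, which is less likely to belong to a neighbouring gene, was present in all libraries for 47 histone genes (70.1%) and 44.4% of other genes.

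The tallest promoter peak of each histone gene had a median height of 2.54, 2.17 and 3.22 in libraries 1, 2 and 4. The corresponding medians of other genes were 3.62, 3.14 and 4.68. Ranked among the promoter peaks of other genes, the histone median stood at the 37.2nd, 35.8th and 36.9th percentile, a mean of 36.6 ± 0.716. In each library the histone median was thus below that of other genes, and the percentile varied by less than 2 points. This rank depended on the unit counted. When the members' distinct promoter peak regions, lesser ones included, were ranked among the distinct promoter peak regions of other genes, the median stood at a percentile of 48 ± 3.55, within 1 SD of the middle. For the tallest peak within 100 bp of the TSS, the histone median stood at the 32.9th, 27.4th and 28.7th percentile in libraries 1, 2 and 4. The lower rank thus held for the tallest peak per gene in either window and not for peak regions taken one by one. The libraries ranked the genes alike: over the 55 genes with a peak in all libraries, Spearman's rho between library pairs was 0.955 to 0.977, where neighbouring genes share some of the peaks.

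Among the core histones, the H4 genes had the tallest peaks. H4 forms, with H3, the central tetramer of the nucleosome. A promoter peak was present in all libraries for 12 of 13 H4 genes, with median heights of 4.47, 3.82 and 6.10 and a mean percentile of 59.6 ± 0.996. The other classes ranked lower, at 42.1 ± 0.352 for H1, 38.2 ± 0.406 for H2A, 32.8 ± 4.38 for H2B and 31.4 ± 2.14 for H3. H4 was first in every library, and its median was above that of other genes in each. The order of H2B and H3 did not exceed their spread over libraries.

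**Figure D1:**
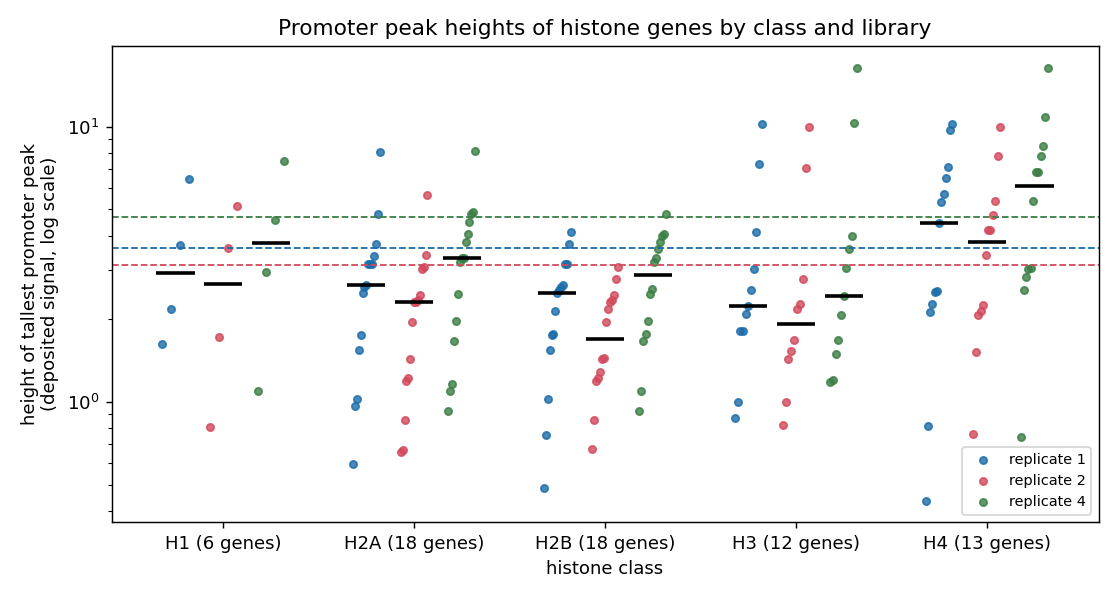
Height of the tallest promoter peak of each histone gene (vertical axis, deposited signal on a log scale) by histone class and library; each point is a gene with a peak, black bars are class medians and dashed lines are the medians of other protein-coding genes in the library of that colour. The H4 medians of 4.47, 3.82 and 6.10 lie above the dashed lines of their libraries, and the medians of the other classes lie below them.

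Hist1h4a had the highest promoter peak of all members, with heights of 10.2, 9.98 and 16.4 in libraries 1, 2 and 4 (12.2 ± 3.64). That placed it at a mean percentile of 96.5 among promoters. The peak region covered the sequence of Hist1h4a printed above and lay within 1 kb of the next gene, Hist1h3a, which was assigned the same heights for that reason. Within 100 bp of its own TSS, Hist1h3a had peaks of 1.73, 1.35 and 1.41, all lower than those at Hist1h4a. Hist1h4c followed among the H4 genes, with heights of 9.70, 7.81 and 10.8 and percentiles of 93.2, 91.2 and 85.7. Of the H4 genes with a peak in all libraries, the lowest mean heights were those of Hist1h4m, with 0.816, 0.763 and 0.743, and Hist1h4b, with 2.52, 1.51 and 2.55. Hist1h4f, Hist1h4j and Hist1h4k overlapped Hist1h4b. The height of Hist1h4j came from a separate region upstream of its TSS. Within 100 bp of its own TSS, Hist1h4j had peaks of 1.28, 1.13 and 1.61, lower than those of Hist1h4b in each library. The height of Hist1h4a was over 10 times that of Hist1h4m in each library. Hist2h4 on chromosome 3 (5.78 ± 1.05) and Hist4h4 on chromosome 6 (4.41 ± 0.974) stood on either side of the H4 median of 4.79 ± 1.17.

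H3 genes had mostly low peaks, with 10 of 12 open in all libraries. A peak within 100 bp of the TSS was present in all libraries for 8 of the 12. Of the 10, Hist1h3f and Hist2h3c2 had no peak within 100 bp of the TSS in any library. The region counted for Hist2h3c2 also lay within 1 kb of Hist2h2aa2. Apart from the peak that Hist1h3a shares with Hist1h4a, the tallest H3 peak was that of Hist1h3e, with heights of 7.32, 7.08 and 10.3 over its own TSS and a percentile of 84.7. The lowest H3 genes with a peak in all libraries were Hist2h3c2, with 0.998, 0.825 and 1.20, and Hist1h3d, with 1.80, 1.00 and 1.49. Heights of Hist1h3e did not overlap those of either gene in the 3 libraries. Hist1h3i had peaks of 0.874 and 1.18 in libraries 1 and 4 and none in library 2, which has the fewest peaks in all.

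The H1 genes encode linker histones, which bind the DNA between nucleosomes, and 4 of the 6 were open in all libraries. Hist1h1c (H1.2) was the tallest, with heights of 6.45, 5.15 and 7.48 and a percentile of 73.2. Hist1h1e (H1.4) had heights of 3.70, 3.63 and 4.59. Hist1h1a (H1.1) had heights of 2.17, 1.72 and 2.96. These 3 genes kept that order in each library without overlap. Hist1h1b (H1.5) was lower, with promoter peaks of 1.62, 0.807 and 1.09, and its TSS itself carried a peak in libraries 1 and 4 but not in library 2. The 1.62 in library 1 came from a region at the edge of the promoter window. That region carried peaks of 1.62, 0.86 and 1.7 in libraries 1, 2 and 4, and only that of library 1 reached the window. The peak within 100 bp of the TSS had a height of 1.01 in library 1. Hist1h1t, the testis H1, had no promoter peak in any library.

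Hist1h1d (H1.3) also lacked a promoter peak by the annotation used, which starts it at position 23553262 of chromosome 13. RefSeq, on the same build, starts it at 23555032, which is 1770 bp downstream and close to the coding sequence. A peak lay within 100 bp of the RefSeq start in libraries 1 and 4, with heights of 1.49 and 1.34, and not in library 2. The absence of a promoter peak at Hist1h1d thus held for the GENCODE start and not for the RefSeq start in those 2 libraries. For the other 66 members the nearest RefSeq and GENCODE starts lay within 100 bp of each other. Hist1h2be has a further RefSeq start at 23585970, which is 35124 bp downstream of its nearest GENCODE start. Within 100 bp of that start lay peaks of 1.94, 1.59 and 1.67 in libraries 1, 2 and 4.

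H2A and H2B genes form the outer dimers of the nucleosome, and 29 of these 36 genes were open in all libraries. For 24 of the 36, a peak lay within 100 bp of the TSS in all libraries. The tallest H2A peaks were on chromosome 3, at Hist2h2aa2 (8.12, 5.65 and 8.17) and Hist2h2aa1 (4.81, 3.42 and 4.88). The lowest were at Hist1h2af (0.594, 0.665 and 1.16) and Hist1h2ab (0.965, 0.656 and 0.928). Each Hist2h2aa value exceeded the values of both low genes in the same library. Among H2B genes, Hist1h2bf (3.75, 3.08 and 4.83) and Hist2h2bb (4.14, 2.79 and 3.58) were the highest and overlapped each other. Of the H2B genes with a peak in all libraries, Hist1h2bm (0.759, 0.674 and 0.928) and Hist1h2bn (1.02, 0.86 and 1.09) were the lowest. The peak of Hist2h2bb also lay within 1 kb of the H3 gene Hist2h3b, and Hist3h2a on chromosome 11 had heights of 3.40, 3.04 and 4.51.

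Many H2A and H2B genes are arranged head to head, so that a single stretch of DNA serves both. The members formed 13 such divergent pairs, 12 of them an H2A with an H2B gene and 1 the H2B gene Hist1h2bh with the H3 gene Hist1h3f. Their start sites lay 176 to 660 bp apart, with a median of 268 bp. A peak lay between the start sites in all libraries in 10 pairs, with mean heights of 0.933 to 3.89. The tallest was that of Hist1h2bf and Hist1h2ad, where peaks covered 98.2% of the interval printed above. Peaks between Hist1h2ac and Hist1h2bc had heights of 3.16, 2.34 and 3.22 and covered 89.4% of their interval. Among the 10 pairs the lowest mean cover was 25.6%, at Hist1h2bh and Hist1h3f. Next came 31.6% at Hist1h2ae and Hist1h2bg and 58.8% at Hist2h2ac and Hist2h2be. Hist1h3f had no peak within 100 bp of its TSS in any library. On chromosome 3 the peak between Hist2h2ac and Hist2h2be, with heights of 3.17, 2.31 and 3.33, also lay within 1 kb of Hist2h2ab. The 3 pairs without a peak in any library were Hist1h2bq with Hist1h2ao, Hist1h2ap with Hist1h2br, and the testis pair Hist1h2ba with Hist1h2aa.

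Counted once each, the promoter peaks of the 67 genes formed 82 distinct regions, of which 58 were present in all libraries. Of these regions 26 lay within 1 kb of 2 histone genes and 4 within 1 kb of 3. Of the regions over a start site, 6 spanned the start sites of 2 genes, each an H2A with an H2B gene. Bola1 and Trim17 were the 2 protein-coding genes outside the histone group that shared a promoter peak with a member. Neighbouring genes thus share some of these regions, and the gene counts above do not rest on a separate peak for each gene.

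The 12 genes without a promoter peak in all libraries fell into a few kinds. Hist1h2bq, Hist1h2ao, Hist1h2ap and Hist1h2br had no peak in any library, and 0% of the 31-base words of their promoters occur only once in the reference genome. They form 2 divergent pairs 23 kb apart, and all 31-base words between the start sites of the first pair recur in inverted orientation at the second. Hist2h3c1 also had none, and 11.5% of the words of its promoter are unique. How the authors treated reads that map to more than 1 place is not given in the sources used here, and its part in the result was not tested. The testis genes Hist1h1t, Hist1h2ba and Hist1h2aa had no peak although their promoters are 100% unique. Within 1 kb of the annotated starts of these 8 genes and of Hist1h1d, the deposited track of the false discovery rate (FDR) of cutting, which lists intervals with a rate under 0.05, held no interval in any library.

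The remaining 3 genes had peaks in some libraries. Hist1h3i is described above. Hist1h4n, 5.93% unique, had a peak of height 0.437 in library 1 alone. Hist3h2ba on chromosome 11 had 1 peak, of height 0.486 in library 1. The FDR track listed 8 bp at Hist1h4n in library 2, with a lowest rate of 0.0442, and nothing at Hist3h2ba in libraries 2 and 4. Both peaks were among the lowest promoter peaks of library 1, at percentiles of 2.25 and 3.33.

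By uniqueness, 49 of the 55 genes with at least 90% unique promoter words had a peak in all libraries (89.1%), as did 6 of the 12 below that limit (50%). The limit was chosen after the values were seen. Copies with few unique words were not all closed: Hist1h4m, 5.56% unique, had low peaks in all libraries, and Hist2h2aa2, 11.5% unique, had a tall one. How reads were shared among near-identical copies is unknown, so the heights of Hist1h4m, Hist1h4n, Hist2h2aa1, Hist2h2aa2 and Hist2h3c2 are uncertain. Leaving out the 3 testis genes as well, 49 of 52 genes with unique promoters were open in all libraries (94.2%). The plot of height against uniqueness shows both kinds of gene without a peak.

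**Figure D2:**
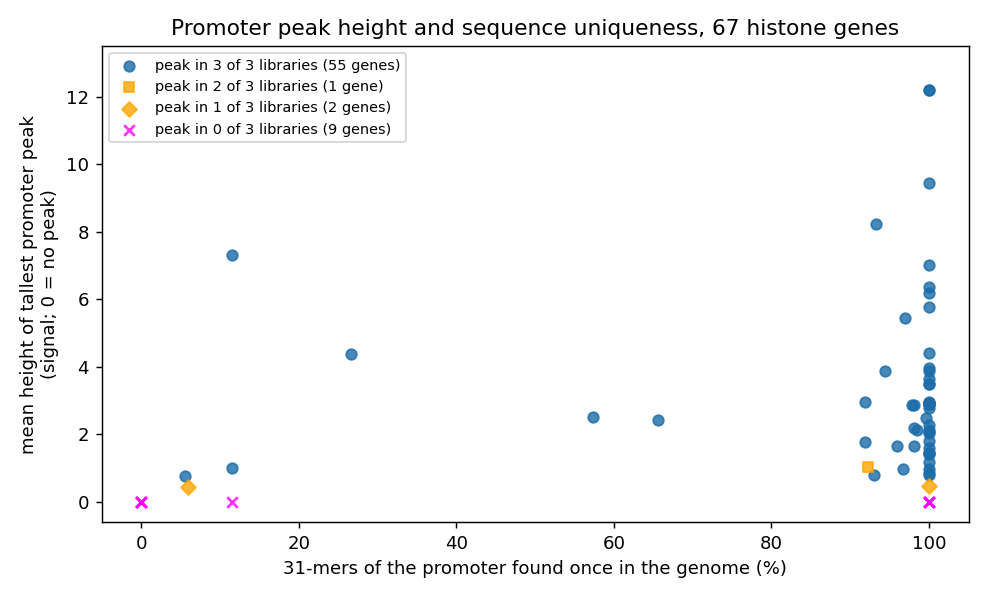
Mean height over the libraries with a peak (vertical axis, deposited signal, 0 where no library has one) against the share of 31-base words of the promoter that occur once in the reference genome (horizontal axis, percent) for the 67 histone genes, with symbols for the number of libraries with a promoter peak. Of the 9 crosses without a peak 4 lie at 0%, 1 at 11.5% and 4 at 100%, and several overlap.

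On chromosome 13 the members fell into 3 clusters and the separate testis pair. Cluster 1 (21714763 to 21838530) held 18 members, cluster 2 (22034164 to 22044676) held 5 and cluster 3 (23530050 to 23765406) held 29. Peaks in cluster 1 were the lowest, with median heights per gene of 1.68, 1.22 and 1.96 in libraries 1, 2 and 4. Those of cluster 3 were 2.54, 2.17 and 3.22, and those of the 10 genes on chromosome 3 were 4.14, 2.79 and 3.58. Cluster 1 was below both in each library. Both cluster 1 and chromosome 3 hold promoters with few unique words, the latter at Hist2h2aa1, Hist2h2aa2, Hist2h3c1 and Hist2h3c2, and Hist2h2aa2 carries the tallest peak on chromosome 3. Promoter peaks in all libraries were present for 12 of 18 genes in cluster 1, 5 of 5 in cluster 2, 27 of 29 in cluster 3 and 9 of 10 on chromosome 3.

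Peaks were densely packed in these clusters. Neighbouring peaks lay a median of 1225, 1260 and 1640 bp apart in libraries 1, 2 and 4 (1375.0 ± 230.2 bp), against 9000, 11188 and 9760 bp elsewhere (9982.7 ± 1110.9 bp). There were 1.88 ± 0.165 peaks per 10 kb in the clusters and 0.189 ± 0.0223 elsewhere, a ratio of 9.93 ± 0.421. Histone genes were themselves dense there, with 1.41 per 10 kb against 0.0852 protein-coding genes per 10 kb elsewhere, and a median of 2745 bp between start sites. Gene density thus differed more between the clusters and the rest of the genome than peak density did. With the stricter, shorter peak list the median spacing was 2815.7 ± 35.5 bp in the clusters and 13993.7 ± 1714.5 bp elsewhere.

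Most of the peaks present in all libraries lay near histone start sites. Merged over libraries, the clusters held 80 regions, 51 of them present in all libraries, and 45 of these lay within 1 kb of a histone TSS. Of the other 6, 2 lay within 1 kb of the further RefSeq start of Hist1h2be, 1 of them over it. Another lay elsewhere inside the long GENCODE transcript of that gene, and 1 lay at the TSS of another gene. Their mean heights were 1.02 to 2.30, within the range of the promoter peaks.

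**Figure D3:**
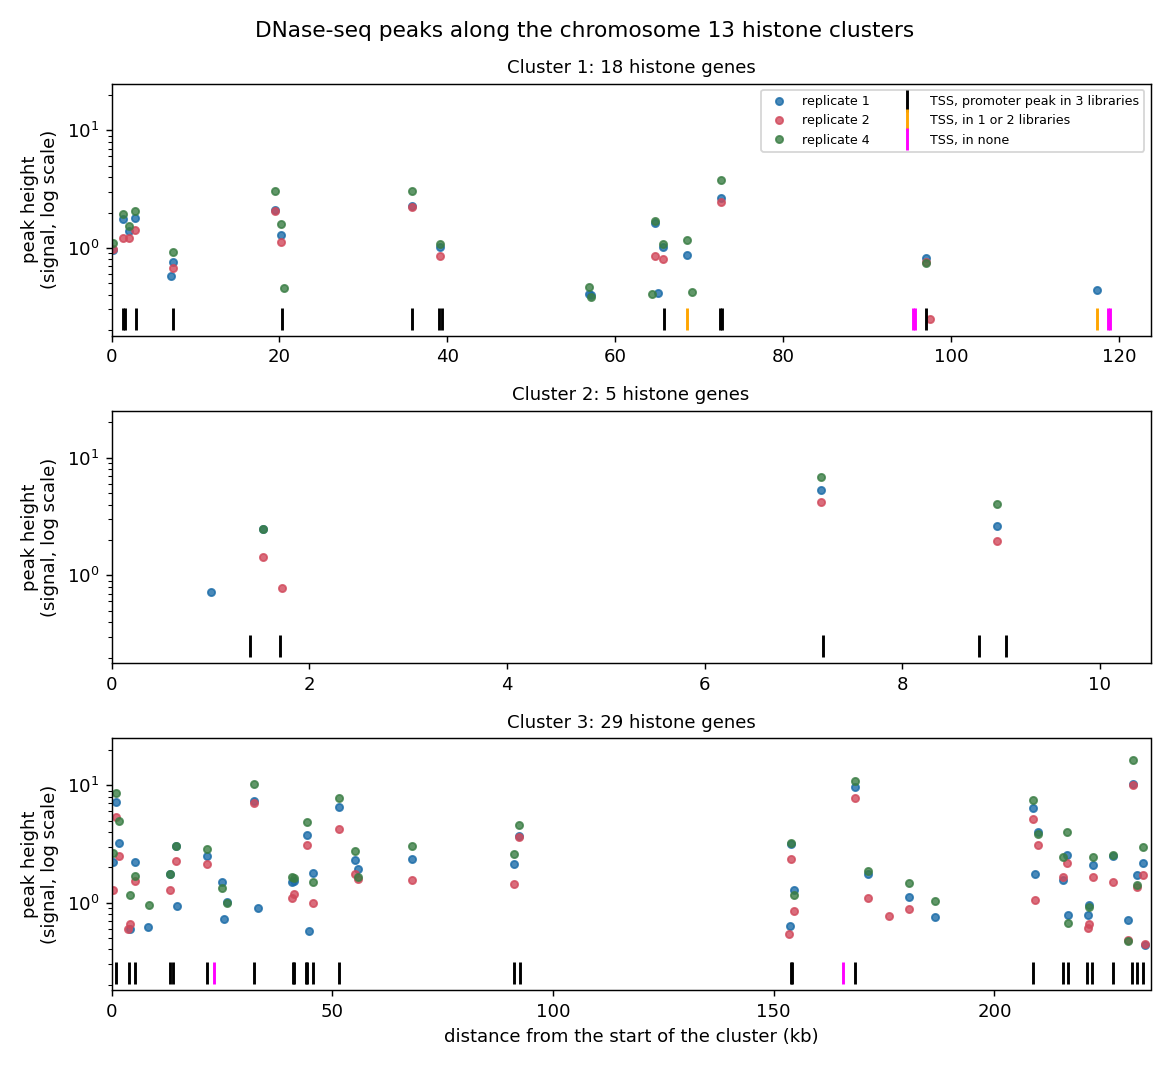
Peaks along the 3 chromosome 13 clusters, each panel with its own horizontal scale (distance from the start of the cluster in kb); points are peak regions at their height in each library (vertical axis, deposited signal on a log scale) and ticks near the bottom are histone start sites coloured by the number of libraries with a promoter peak. Peaks crowd where start sites crowd, and the 4 genes of the copied pairs near the right end of cluster 1 have no point at their ticks.

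The classes differed in the motifs of their promoters, searched from 250 bases before to 50 after the TSS on both strands. GGTCCG was present in 12 of 13 H4 promoters, 2 of 12 H3, 1 of 18 H2B and no H1 or H2A promoter, against 10.1% of other genes. In the 12 H4 genes it was always on the strand of the gene, starting at positions −80 to −11 from the TSS. Hist1h4a, the gene with the tallest peak, was the H4 gene without it. Its printed promoter holds 4 matches of GCGGGAA, 3 of GGGCGG and a pair of TGACGTCA palindromes. GCGGGAA occurred in 6 of 13 H4 and 1 of 54 other histone promoters, against 5.98% of other genes.

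CCAAT was found in all 18 H2A and all 18 H2B promoters, with a mean of 3 and 3.28 matches, and in 11 of 12 H3 promoters. It was rarer in H4, in 4 of 13, and occurred in 38.7% of other genes. The 2 members of a divergent pair share much of their windows, so their counts are not separate. The octamer ATTTGCAT occurred in 7 H2A and 8 H2B promoters and in no H1, H3 or H4 promoter, against 1.51% of other genes. TATAAA was present in 37 of 67 members (55.2%) and 12.4% of other genes. At 40 to 20 bases before the TSS on the strand of the gene it was found in 3 of 6 H1 promoters and in 3 of the other members, which is 8.96% of members against 2.39% of other genes. This count depends on the GENCODE starts, and RefSeq starts were not tested for it. AAACACA was found in 4 of 6 H1 promoters, starting at positions −117 to −113 from the TSS, against 6.33% of other genes. GGGCGG was about as common in members (41.8%) as in other genes (44.9%). In a window of 500 bases before to 100 after the TSS, members with GGGCGG rose in number from 28 to 45 and those with GCGGGAA from 7 to 11.

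The closed testis pair carried the same kinds of motif as the open pairs. Its printed stretch holds 4 matches of CCAAT, as does that of Hist1h2bf and Hist1h2ad, together with an octamer and 2 matches of TATAAA. No printed match of the testis pair lay under a footprint in any library. Without a peak there, this was not compared with the open pairs. Among the open pairs, at Hist1h2bf and Hist1h2ad 1 of the 4 CCAAT matches was under a footprint in all libraries. At Hist1h2ac and Hist1h2bc no printed match was, and 1 match of CCAAT and 1 each of the TATA box and the octamer lay under a footprint in a single library. A match describes the letters in a window and does not show that a factor was bound.

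Footprints over H4 promoters were concentrated before the TSS. Among the 12 H4 genes with a peak over the TSS in all libraries, footprints covered 44.6% ± 5.87 of the bases from 75 to 51 before the TSS, against 24% ± 1.54 for 9677 other genes. In the bin from 25 to 1 before the TSS they covered 9.78% ± 4.82, against 27.6% ± 1.98. Coverage at H4 was thus higher than at other genes in the first interval and lower in the second, by more than the SD in each. The low coverage next to the TSS was shared with the other core classes, at 9.03% ± 7.13 for H2B, 13.3% ± 4.68 for H2A and 16.3% ± 9.02 for H3. Of the GGTCCG matches in these genes, 6 of 11 lay under a footprint in all libraries, at Hist1h4c, Hist1h4d, Hist1h4f, Hist1h4k, Hist2h4 and Hist4h4. Another 2, at Hist1h4b and Hist1h4i, did so in libraries 1 and 2. Over all members with such a peak, 6 of 12 matched sites were covered in all libraries (50%), against 12.1% of sites at other genes. H4 peaks were also the tallest class, and the part of height in this difference was not tested. Bins run from GENCODE starts, and the part of their offsets from RefSeq starts in the coverage near the TSS was not tested either.

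**Figure D4:**
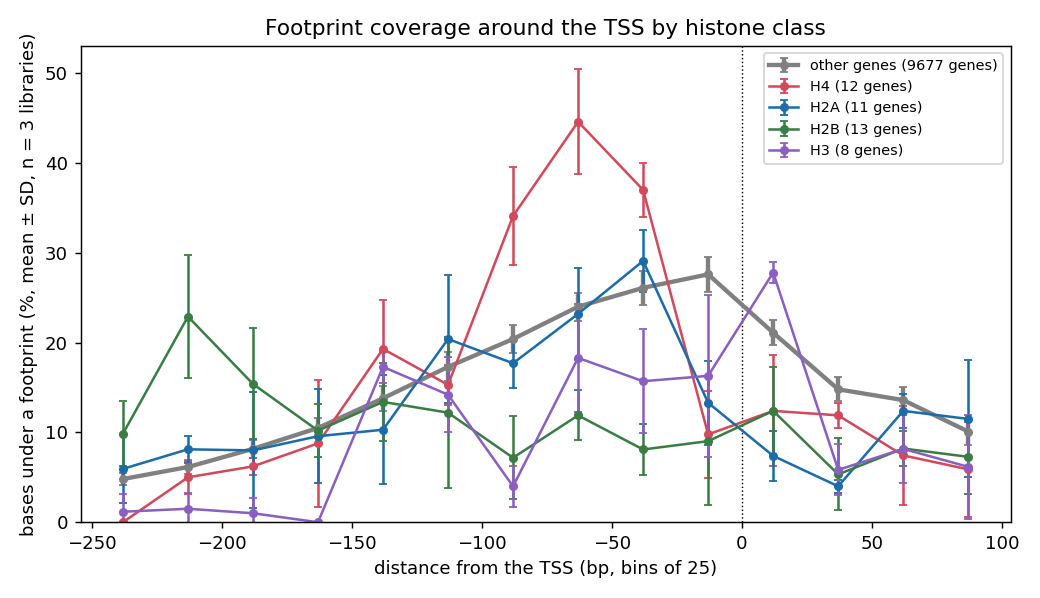
Share of bases under a deposited footprint (vertical axis, percent, mean ± SD over 3 libraries) by distance from the TSS (horizontal axis, bins of 25 bp, negative before the TSS) for genes with a peak over the TSS in all libraries; H1, with 3 genes, is not drawn. H4 is highest from 75 to 51 bp before the TSS, at 44.6%, and falls to 9.78% in the last 25 bp, where the other core classes are also below the 27.6% of other genes.

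Sites in the windows of 2 genes were counted once. CCAAT sites were under footprints about as often as elsewhere, with 9 of 80 covered in all libraries (11.2%) against 10.3% at other genes. At Hist1h3e 2 of the 4 printed CCAAT matches were covered in all libraries and the other 2 in none. TATAAA sites were covered in all libraries in 8 of 22 cases (36.4%), against 9.12% at other genes. The TATAAA matches of Hist1h1a and Hist1h1e, at positions −31 and −27 from the TSS, were both among them. Sites of TGACGT and GGGCGG were covered less often than at other genes, in 42.9% of 14 against 56.6% and in 32.1% of 28 against 38.7%. A TGACGTCA palindrome counts as 2 TGACGT sites, since each strand matches, so the 14 are not separate elements. The 6 covered TGACGT sites all lay in palindromes of Hist1h4a and Hist1h4h. At Hist1h4a both palindromes and the 3 GGGCGG matches were under footprints in all libraries. At Hist1h4h the TGACGT matches at −76 and −74 and the GGGCGG match at −48 were covered in all libraries too. The density of footprints in histone promoter peaks was 11.7 ± 0.545 per kb, against 12.4 ± 0.101 in other promoter peaks. Among peaks between the quartiles of the members' heights it was 10.9 ± 0.642 and 10.3 ± 0.708 per kb, which differed by less than the SD.

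The stem-loop that ends these mRNAs was looked for in the 150 bases after the coding sequence, as 16 bases with a stem of 6, a loop of 4 and at most 1 mismatch. It was found in 61 of 67 members (91.0%) and in 0.262% of 21784 other protein-coding genes. The 3 commonest forms, in 38, 9 and 8 members, are given with the loop in capitals to show how little they differ.
Stem-loop form 1: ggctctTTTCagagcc
Stem-loop form 2: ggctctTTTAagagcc
Stem-loop form 3: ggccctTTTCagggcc
The testis genes Hist1h1t, Hist1h2ba and Hist1h2aa have the element although their promoters were closed. It was not found in this window in Hist1h2bp, Hist1h2bq, Hist1h2br, Hist1h3g, Hist1h4a and Hist2h2be, and no match says only that these letters are not in this window.

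Genes that act on histone genes or their products ranked higher than the histone genes themselves. In a list for histone gene transcription and mRNA processing, 18 of 18 promoters carried a peak in each library, at a median percentile of 78.3 ± 3.09. For this and the lists below, the share over all genes outside the histone group was 50.4%, and 81.0% for those with a CpG-rich start. Npat, the organiser of the histone locus body, had heights of 11.8, 11.2 and 18.7, and Casp8ap2, another component of that body, 13.8, 11.0 and 16.9. Both exceeded the tallest histone promoter peak in each library. Of the histone chaperones, which carry histones to DNA, 14 of 14 were open, at 80.8 ± 2.08, with Hjurp (18.7 ± 4.81), Nap1l4 (10.8 ± 1.93) and Ubn1 (10.8 ± 2) the tallest.

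Histone genes listed as replication-independent were open in all libraries in 11 of 14 cases (78.6%), at a median percentile of 63.6 ± 6.10. The tallest were H2afv, an H2A.Z gene (10.1, 8.84 and 12.8), and H3f3b, which encodes H3.3 (8.15, 7.86 and 13.1). The 3 without a peak in any library were the germ-line linker histones H1foo, H1fnt and Hils1. Of 23 S phase and cell cycle genes 22 were open in all libraries, at 64.8 ± 1.6, with Ccne1 (15.1 ± 3.74) and Mcm5 (10.3 ± 1.59) the tallest. Tyms had a peak in library 1 alone, of height 0.429. The median percentiles of these 4 lists were above the 36.6 ± 0.716 of the replication-dependent genes in each library.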

How the data were processed

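DNase-seq of 3 libraries of primary mouse monocytes was used as deposited, on mm10. Per the labels, each library's files derive from its own alignment, so peaks were called per library. For the aligner, the peak caller, read filters and the footprint method nothing is given in the sources used here. Each peak carries 1 height, a signal computed by the authors. The deposited footprints carry a constant value of the p-value kind (0.01), so only their positions were used, and the deposited FDR track gives the authors' rates under 0.05, also read as of the p-value kind. Neighbouring peaks overlap in 466 to 740 cases per library and were merged for covered lengths.

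Genes came from GENCODE M21 (release 21) and sequence from GRCm38.p6. RefSeq starts were matched through synonyms and position for 67 of 67 members. A promoter peak overlaps by 1 bp or more the 1000 bp on either side of a coding TSS, and the tallest gives the height. Clusters are runs of at least 5 chromosome 13 members with start sites no more than 100000 bp apart. Pairs are head-to-head members within 1000 bp. Uniqueness is the share of 31-mers found once in the assembly. The longer of the 2 deposited peak lists was used. Members, lists and motifs were chosen with earlier results of these data known.

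Named genes were the H1 genes, the 2 highest and 2 lowest of each core class, those without a peak in some library, those outside chromosome 13 by range, and from the lists the 2 tallest and those without a peak. Genes named for a motif, a pair or a stem-loop were added after their values were seen. Counting functions were tested on simulated data. Python 3.11.15, pandas 2.3.3 and numpy 2.4.6 were used. Alternatives comprised the shorter list, other windows, overlap rules and each library left out. No intervals for depth could be given.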

Additional observations from a re-analysis of the deposited data

How the results depend on the processing

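Of 51 alternative values 41 stayed within the stated tolerance of the reported one (1.5 times for a count, 1 SD for a mean). For a mean, leaving out 1 of 3 libraries shifts the value by less than 1 SD whatever the data. A count of 55 among 67 genes likewise cannot rise by 1.5 times. The 41 thus include values that could not leave the tolerance, and do not measure stability. The count of 55 genes with a promoter peak in all libraries ranged from 47 to 59, and leaving out each library gave 55 to 56. The 47 genes with a peak over the TSS became 40 to 51, and 47 to 50 without 1 library. The 82 distinct regions became 66 with the shorter list and 71 to 80 without 1 library. The median percentile of 36.6 moved to 32.9 with the shorter list, 34 with a window of 500 bp, 26.9 with all distinct regions of members among the tallest peaks of other genes and 48 with distinct regions on both sides, and was 36.3 to 37.0 without 1 library. The median peak spacing of 1375.0 bp moved to 2815.7 bp with the shorter list and to 1127.0 bp between peak edges, and was 1242.5 to 1450.0 bp without 1 library. Footprints per kb moved from 11.7 to 12.5 with the shorter list and were 11.4 to 11.9 without 1 library. In the wider motif window 45 members held GGGCGG and 11 held GCGGGAA. Motif matches under a footprint in all libraries rose from 15.6% to 21.5% with footprints extended by 5 bp. RefSeq starts, unique promoters, merged overlapping peaks and distinct regions on both sides were chosen as alternatives after seeing the data. No paired analysis was possible because there is 1 group. Unknown depth, unknown handling of reads that map to several copies, and shared peaks limit the counts.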
